A study of Mus musculus with 9 samples.

Results

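The keratins described here are 10 genes of mouse 4T1 tumors, out of 22609 genes listed in the count tables: Krt5, Krt14, Krt15, Krt17, Krt6a, Krt6b, Krt16, Krt79, Krt10, and Krt1. They were selected by name, with earlier results on the same groups already known, so their differences between groups are given as a description, with no p-value, and the calls counted for them restate how they were selected. The tables list 51 genes with a keratin symbol, and the other 41 served for comparison. The label "basal and stress keratins" fits 7 of the 10 genes by their known roles. Krt10 and Krt1 are keratins of the layers above the basal layer, and Krt79 is a keratin of hair follicle openings and sebaceous gland ducts.

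The 4T1 line is a mouse mammary carcinoma line that serves as a model of triple-negative breast cancer (TNBC), and the tumors were grown in BALB/c mice, the strain the line comes from, after injection into a mammary fat pad. The LFD group was fed a diet with 10 kcal% fat and given vehicle (hydroxy propyl cellulose). The HFD group was fed 60 kcal% fat and given the same vehicle. The HFD + EC359 group was fed 60 kcal% fat and given EC359, an inhibitor of the leukemia inhibitory factor receptor (LIFR), intraperitoneally at 5 mg/kg on 5 days per week. The diets began 6 weeks before the cells were injected and were kept to the end. No group received EC359 on the LFD, so HFD + EC359 and LFD differ in both diet and drug. RNA-seq was done on 9 samples of tumor tissue, 3 per group. The labels give replicate numbers but not which tumor or animal each sample came from. P-values therefore measure only the spread between these samples, which may be technical, and that spread was small, with a common coefficient of variation beyond counting error of 3.63%.

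Keratins form the intermediate filaments of epithelial cells and assemble as pairs of 1 type I and 1 type II protein. KRT5 pairs with KRT14 in the basal layer of stratified epithelia and in the myoepithelial (basal) cells of the mammary gland, while KRT8 pairs with KRT18 in simple epithelia, including luminal mammary cells and most mammary carcinomas. KRT6, KRT16, and KRT17 are known as stress keratins because injured, regenerating, or inflamed epidermis makes them, and KRT1 with KRT10 replaces the basal pair when keratinocytes leave the basal layer.

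In the mm9 genome, which the count tables use, all 10 genes lay on the minus strand of the 2 keratin clusters. The type I genes Krt10 (chr11:99246569-99250678), Krt15 (chr11:99993073-99997263), Krt14 (chr11:100064476-100068824), Krt16 (chr11:100107406-100110216), and Krt17 (chr11:100117531-100122303) spanned 875.7 kb. The type II genes Krt6b (chr15:101506454-101510720), Krt6a (chr15:101520359-101524736), Krt5 (chr15:101537501-101543322), Krt1 (chr15:101675857-101681217), and Krt79 (chr15:101759763-101770755) spanned 264.3 kb. Each type I gene was counted over 8 exons and each type II gene over 9. The coding sequences of Krt6a and Krt6b were 97.8% identical and differed at 37 of 1662 aligned bases, and 18.7% of the 150-base stretches of the Krt6a transcript occurred unchanged in Krt6b. No such stretch was shared between any other member and another gene of the GENCODE M1 protein-coding transcripts. Pseudogenes and other noncoding genes were not searched. Krt14 and Krt16 were 86.4% identical, and the 25 pairs of a type I with a type II gene were 60.8% to 67.5% identical. Single values of Krt6a and Krt6b are therefore uncertain as to which copy the reads came from.

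The 250 bases before the annotated start are shown for the 3 genes with a usable window: the basal Krt5 and the duct keratin Krt79, which were lowest in HFD, and the suprabasal Krt10, whose groups overlapped. RefSeq windows (GRCm38.p6, minus strand, 5′ to 3′) were on hand for 4 of the 10 genes. That of Krt14 lay within the deposited gene model, its last base 1479 bases past the gene's mm9 start, and is not shown. That of Krt5 ended 14 bases before the mm9 start, and those of Krt79 and Krt10 ended at it. Krt15, Krt17, Krt6a, Krt6b, Krt16, and Krt1 had no window. Capitals mark matches on either strand to the TATA motif TATAAA, the AP-1 motif TGANTCA, the box named CCAAT, the GC box core GGGCGG, or the Krüppel-like factor core CACCC, and the longer runs of capitals in the Krt79 window are CACCC matches that adjoin without sharing a base.
Krt5 (chr15:101712906-101713155): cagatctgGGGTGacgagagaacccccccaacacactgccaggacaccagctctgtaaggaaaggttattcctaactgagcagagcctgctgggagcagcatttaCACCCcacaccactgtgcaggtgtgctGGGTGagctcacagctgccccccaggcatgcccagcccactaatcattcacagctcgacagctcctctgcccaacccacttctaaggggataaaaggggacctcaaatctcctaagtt
Krt79 (chr15:101940325-101940574): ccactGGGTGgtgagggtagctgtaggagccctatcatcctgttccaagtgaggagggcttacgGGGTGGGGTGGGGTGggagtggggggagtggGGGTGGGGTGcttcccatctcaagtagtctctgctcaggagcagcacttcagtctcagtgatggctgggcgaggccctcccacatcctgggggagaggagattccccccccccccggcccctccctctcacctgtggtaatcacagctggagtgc
Krt10 (chr11:99389365-99389614): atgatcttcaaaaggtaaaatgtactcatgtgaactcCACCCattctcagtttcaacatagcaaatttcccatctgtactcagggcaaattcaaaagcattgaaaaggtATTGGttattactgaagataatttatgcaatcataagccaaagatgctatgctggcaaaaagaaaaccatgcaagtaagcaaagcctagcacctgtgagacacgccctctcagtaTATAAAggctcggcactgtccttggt
TATAAA was found only in the Krt10 window of these 3, with its last base 21 bases before the start, and in 12.4% of 32851 RefSeq windows of the same length. CCAAT was also found only in the Krt10 window, and in 33.9% of all windows. CACCC was found in all 3 windows and in 52.0% of all windows. TGANTCA (6.75% of all windows) and GGGCGG (32.7%) were in none of the 3, which says only that these letters are not in these bases.

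The libraries held 5085357 to 9751201 counts, fewest in the LFD group and most in the HFD + EC359 group. Levels are given as CPM, read pairs per gene scaled to a common library total with TMM factors. The limit that a count of 0 allows for counting error only is 3 counts, equal to 0.308 to 0.590 CPM on library totals without TMM factors. All 10 keratins passed the filter on low counts, as did 13366 genes in all. Of the carcinoma markers, Krt8 and Krt18 were at 408 to 599 and 293 to 486 CPM in the group means. Krt7 and Krt19 had means of at most 0.667 and 1.07 CPM. Epcam was at 1.37 to 7.39 CPM and Cdh1 at 5.90 to 28.45 CPM, both lowest in HFD. Their log2 fold changes were -2.43 and -2.27 in HFD against LFD, and 1.90 and 1.75 in HFD + EC359 against HFD. Of the receptors that define TNBC, Pgr was at or near the limit in the group means, Esr1 was at 6.81 to 12.7 CPM, and Erbb2 was at 74.9 to 107 CPM. In a bulk tumor, fewer cells of a type and less RNA per cell cannot be told apart. A trend with GC content was measured on each gene's deviation from its own mean over the 9 libraries. By this measure GC-poor genes were low against GC-rich genes in the LFD libraries (log2 differences of -0.54 to -0.32). They were high in the HFD libraries (0.10 to 0.16) and the HFD + EC359 libraries (0.25 to 0.30). The exons of the 10 keratins had 53.4% to 58.8% GC, and with this trend removed the calls of these keratins still numbered 8, 8, and 3 in the comparisons that follow.

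Krt14, the main type I keratin of basal cells, had the highest level per kilobase of exon of the 10 genes in the LFD tumors (459 CPM per kb). Its level was 839, 707, and 739 CPM in the LFD libraries, 40.6, 40.3, and 40.9 CPM in the HFD libraries, and 234, 239, and 238 CPM in the HFD + EC359 libraries. The 3 groups did not overlap, and the HFD + EC359 libraries lay between the others. The log2 fold change of HFD against LFD was -4.23 ± 0.0566 (SE), that of HFD + EC359 against HFD was 2.54 ± 0.0592, and that of HFD + EC359 against LFD was -1.68 ± 0.0446. These estimates share libraries: the HFD libraries enter the first and the second, so that any deviation of those 3 libraries moves both.

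Krt5, the type II partner of KRT14, followed the same order with smaller steps. It was at 267, 236, and 255 CPM in LFD, 28.3, 27.5, and 36.0 CPM in HFD, and 146, 139.5, and 144 CPM in HFD + EC359. Here too the groups were separate, and the HFD + EC359 level was 56.6% ± 1.32 (SD, n = 3) of the LFD mean, against 31.1% ± 0.393 for Krt14. The level of Krt14 per kilobase of exon was 3.97 ± 0.157 times that of Krt5 in the LFD tumors, 1.78 ± 0.241 times in the HFD tumors, and 2.18 ± 0.0768 times in the HFD + EC359 tumors (mean ± SD, n = 3). The partner genes thus moved in the same order but by unequal amounts. The log2 fold changes of Krt5 were -3.05 ± 0.0668, 2.23 ± 0.0685, and -0.82 ± 0.0522 in the 3 comparisons, in the order used for Krt14.

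Krt15, a type I keratin of basal cells and of hair follicle stem cells, was the least abundant of the 10 per kilobase in the LFD tumors (9.06 CPM per kb) and the only one with a higher level under HFD + EC359 than under LFD in all 3 libraries. Its level was 19.6, 13.3, and 13.8 CPM in LFD, 2.65, 3.93, and 4.50 CPM in HFD, and 22.2, 23.9, and 24.2 CPM in HFD + EC359. The HFD values rest on 21 to 33 counts per library. The HFD + EC359 level was 150% ± 6.96 of the LFD mean (log2 fold change 0.61 ± 0.128), while HFD against LFD gave -2.06 ± 0.188 and HFD + EC359 against HFD gave 2.67 ± 0.161.

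**Figure D1:**
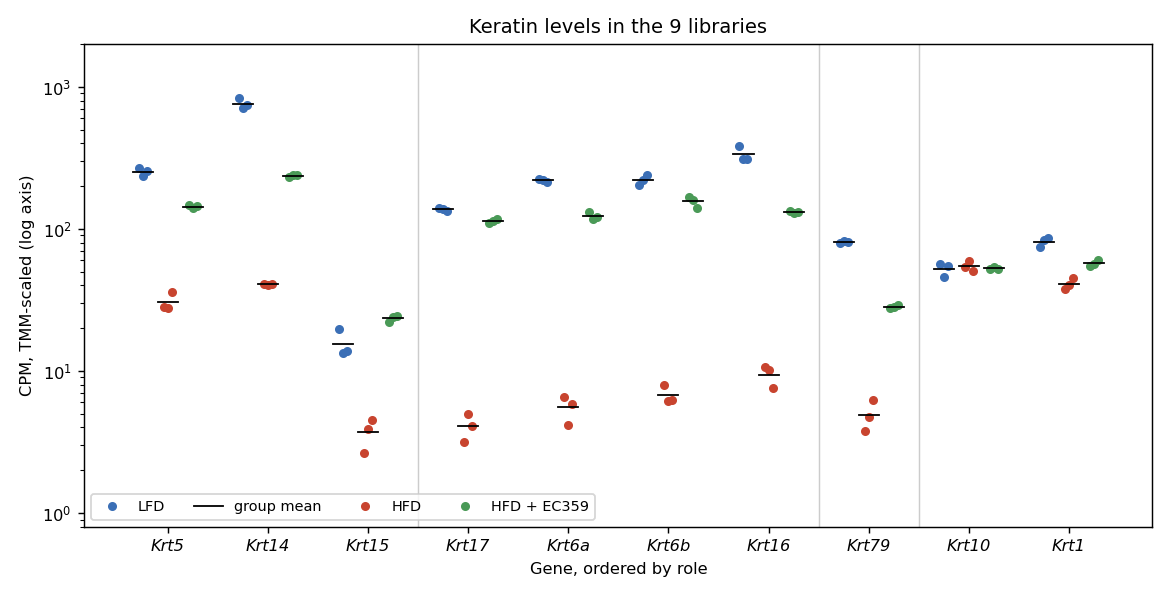
Levels of the 10 keratins in each of the 9 libraries, as TMM-scaled CPM on a log axis. Points are single libraries of the LFD, HFD, and HFD + EC359 groups, short lines are group means, and vertical lines separate basal keratins, stress keratins, Krt79, and the suprabasal Krt10 and Krt1. The HFD points lie lowest for 9 genes, and for Krt10 the groups overlap at 46.2 to 59.2 CPM.

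The 4 stress keratins had the widest range of the set. Their HFD level was 2.52% to 3.08% of the LFD mean, against 5.33% for Krt14 and 12.1% for Krt5. Krt17, a type I keratin of injured epidermis and of basal-like breast carcinomas, was at 139, 138, and 134 CPM in LFD, 3.15, 4.98, and 4.09 CPM in HFD, and 110.3, 114, and 116 CPM in HFD + EC359. The log2 fold change was -5.07 ± 0.0941 between HFD and LFD and 4.80 ± 0.0935 between HFD + EC359 and HFD. The HFD + EC359 libraries stood at 83.0% ± 2.27 of the LFD mean, the closest approach from below among the 8 basal, stress, and duct keratins. That last difference (log2 fold change -0.27 ± 0.0511) became 0.04 once each library's trend with GC content and exon length was removed, so its direction depends on the processing.

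Krt6a and Krt6b, type II keratins of injured epidermis and of the companion layer of the hair follicle, had overlapping levels per kilobase in LFD, and the ratio of Krt6b to Krt6a was 1.02 ± 0.111 in LFD, 1.26 ± 0.204 in HFD, and 1.28 ± 0.103 in HFD + EC359. Krt6a was at 225, 221, and 213 CPM in LFD, 6.56, 4.19, and 5.86 CPM in HFD, and 131, 118, and 120.5 CPM in HFD + EC359. Krt6b was at 202, 221, and 239 CPM in LFD, 7.94, 6.16, and 6.27 CPM in HFD, and 169, 159.9, and 139 CPM in HFD + EC359. In both genes every HFD library was below every library of the other groups. With both copies summed to 1 gene the log2 fold changes were -5.16, 4.49, and -0.67 in the 3 comparisons, against -5.30, 4.47, and -0.84 for Krt6a and -5.02, 4.51, and -0.51 for Krt6b alone.

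Krt16, the usual type I partner of KRT6, was the most abundant stress keratin under LFD per kilobase of exon (214 CPM per kb). Its level was 386, 311, and 308 CPM in LFD, 10.6, 10.1, and 7.63 CPM in HFD, and 133, 129, and 132 CPM in HFD + EC359. It reached 39.2% ± 0.575 of the LFD mean under HFD + EC359, less than Krt17 (83.0%), Krt6b (70.7% ± 6.85), or Krt6a (56.0% ± 3.09). The ratio of Krt16 to Krt17 per kilobase was 2.36 ± 0.277 in LFD, 2.34 ± 0.792 in HFD, and 1.12 ± 0.041 in HFD + EC359. The highest HFD + EC359 ratio (1.16) lay below the lowest ratio in the other 6 libraries (1.80). The log2 fold changes of Krt16 were -5.14 ± 0.0916, 3.79 ± 0.0998, and -1.35 ± 0.0588.

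Krt79, a type II keratin of follicle openings and gland ducts, was at 79.4, 82.1, and 80.4 CPM in LFD, 3.78, 4.72, and 6.27 CPM in HFD, and 27.5, 28.0, and 29.1 CPM in HFD + EC359. The groups were separate, and the HFD + EC359 level was 35.0% ± 0.997 of the LFD mean. Its log2 fold changes, -4.04 ± 0.115, 2.52 ± 0.129, and -1.51 ± 0.0817, were close to those of Krt14.

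Krt10 was the exception. This type I suprabasal keratin was at 56.7, 46.2, and 54.8 CPM in LFD, 53.9, 59.2, and 50.7 CPM in HFD, and 52.2, 54.2, and 52.0 CPM in HFD + EC359. The libraries of all 3 groups overlapped. The log2 fold changes were 0.06 ± 0.0791, -0.05 ± 0.0733, and 0.01 ± 0.0778, each smaller than its SE, and their signs changed when single libraries were left out. Krt10 was measured on 277 to 520 counts per library, so a 2-fold difference would have been far outside this error.

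Krt1, the type II partner of KRT10, lay between Krt10 and the other 8 in its change from LFD to HFD and from HFD to HFD + EC359. It was at 74.7, 83.4, and 85.7 CPM in LFD, 38.0, 40.1, and 45.1 CPM in HFD, and 55.1, 56.4, and 60.4 CPM in HFD + EC359. The groups did not overlap. The HFD level was 50.5% ± 4.52 of the LFD mean, a 1.99-fold difference that falls just short of the 2-fold limit used for calls and passes it without LFD replicate 1 (log2 fold change -1.04) or HFD replicate 3 (-1.06), against -0.99 ± 0.0742 with all libraries. The HFD + EC359 level was 70.5% ± 3.41 of the LFD mean. The ratio of Krt10 to Krt1 per kilobase was 0.761 ± 0.120 in LFD, 1.57 ± 0.221 in HFD, and 1.08 ± 0.063 in HFD + EC359.

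**Figure D2:**
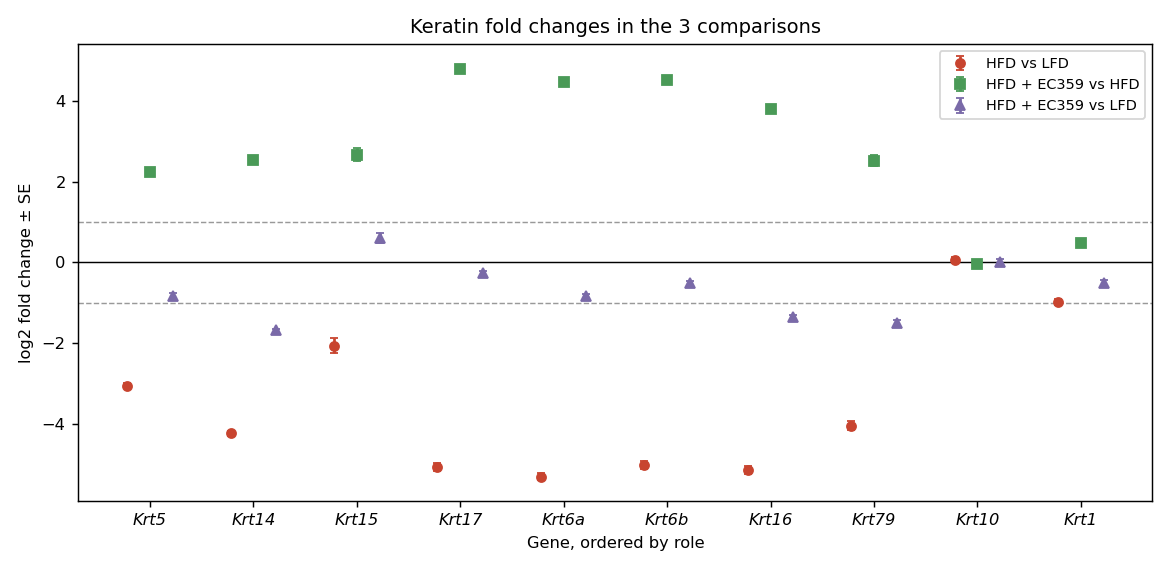
Log2 fold changes of the 10 keratins with their standard errors for HFD against LFD (circles), HFD + EC359 against HFD (squares), and HFD + EC359 against LFD (triangles). Dashed lines mark a 2-fold change. The 4 stress keratins lie at -5.30 to -5.02 in the first comparison and 3.79 to 4.80 in the second, and Krt10 lies within 0.06 of 0 in all 3.

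A gene is called here when its fold change is over 2 and its adjusted p under 0.01 (edgeR quasi-likelihood test with Benjamini-Hochberg adjustment over all 13366 genes tested). In HFD against LFD, 8 of the 10 keratins were called lower (2.68% of all tested genes were called lower) and 0 were called higher (3.03% of all genes). Krt10 and Krt1 were the ones not called. In HFD + EC359 against HFD, the same 8 genes were called higher (2.06% of all genes) and 0 lower (1.38% of all genes). In HFD + EC359 against LFD, Krt14, Krt16, and Krt79 were called lower (1.43% of all genes) and 0 were called higher (3.66% of all genes). The groups did not overlap for 9 of the 10 keratins in each comparison, as they did not for 57.1%, 41.3%, and 62.9% of all tested genes in the 3 comparisons. The median log2 fold change of the 10 was -4.13, 2.61, and -0.66, and that of all tested genes was 0.01 in each comparison. These counts restate values on which the genes were selected, and nothing further is read from them.

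Summed over the 10 genes, keratin RNA was 2157 ± 119 CPM in the LFD tumors, 201 ± 5.98 CPM in the HFD tumors, and 1066 ± 12.3 CPM in the HFD + EC359 tumors (mean ± SD, n = 3). That was 0.201% to 0.22% of all counts in the LFD libraries, 0.0196% to 0.0208% in the HFD libraries, and 0.108% to 0.111% in the HFD + EC359 libraries. The sum of Krt8 and Krt18 took 0.104% to 0.107%, 0.0697% to 0.0707%, and 0.0756% to 0.0782% of the counts. Per kilobase of exon, the 10 keratins summed to 1181 ± 73.1, 99.99 ± 2.55, and 567 ± 4.50 CPM per kb, against 332, 226, and 245 CPM per kb for Krt8 and 347, 209, and 217 CPM per kb for Krt18. The simple pair was thus below the 10 keratins under LFD and HFD + EC359 and above them under HFD. Type I members were 2.08 ± 0.204 times as abundant per kilobase as type II members in LFD, 1.61 ± 0.223 times in HFD, and 1.51 ± 0.0703 times in HFD + EC359.

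The makeup of the keratin RNA also differed between the groups. Krt14 was 57.5% ± 0.589 of the type I members per kilobase in LFD, 39.9% ± 2.09 in HFD, and 41.9% ± 0.219 in HFD + EC359. Krt10 was 3.15% ± 0.243, 42.4% ± 1.38, and 7.40% ± 0.167 of the type I members in the same order. The level of Krt10 itself overlapped between the groups, and its share was high where the other type I members were low. Krt17 was 11.4% ± 0.918 of the type I members in LFD, 4.37% ± 0.846 in HFD, and 22.1% ± 0.367 in HFD + EC359. Among the type II members, Krt6a was 25.4% ± 1.09, 6.37% ± 1.40, and 24.1% ± 0.643, and Krt6b was 25.7% ± 1.81, 7.95% ± 1.62, and 30.8% ± 2.1. Krt1 was 8.67% ± 0.559 in LFD, 43.6% ± 1.91 in HFD, and 10.4% ± 0.840 in HFD + EC359, and Krt5 was 30.1% ± 1.80, 36.1% ± 1.65, and 28.9% ± 0.861.

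**Figure D3:**
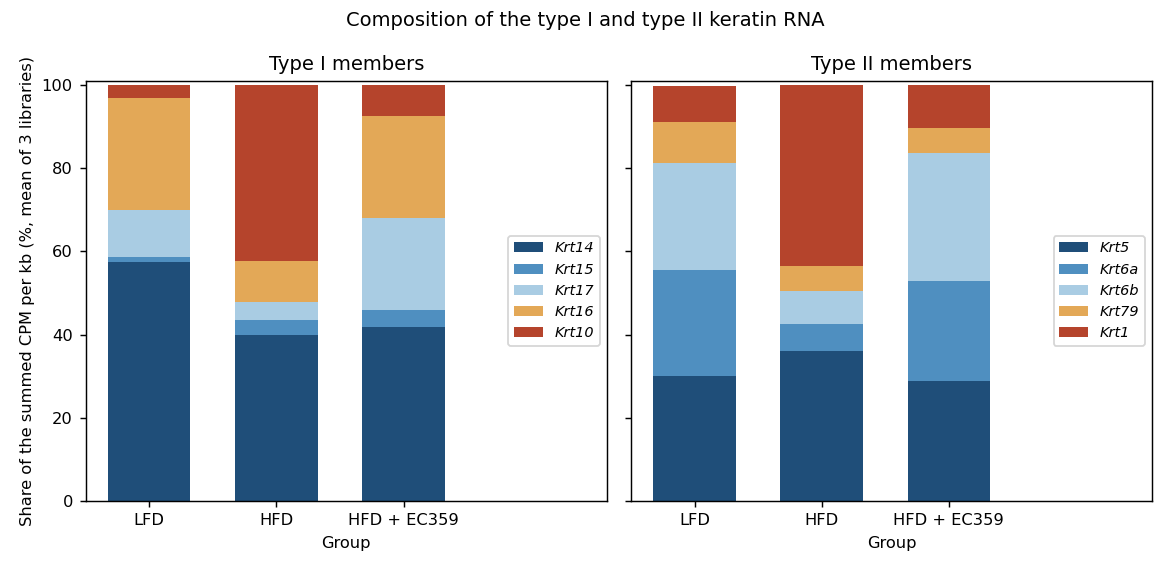
Share of each gene in the summed CPM per kilobase of exon of the 5 type I members (left) and the 5 type II members (right), as the mean of 3 libraries in each group. Under HFD, Krt10 and Krt1 reach 42.4% and 43.6%, against 3.15% and 8.67% under LFD.

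The order of the keratins by level per kilobase of exon was led by Krt14 in the LFD tumors, followed by Krt18, Krt8, Krt16, and Krt5, with no overlap between the libraries of these neighbors. Krt6b and Krt6a came next and overlapped each other (98.6 and 97.3 CPM per kb), and then Krt17, Krt79, Krt1, and Krt10 followed without overlap. In the HFD tumors, Krt8 and Krt18 (226 and 209 CPM per kb) led by a wide margin, and Krt10 and Krt14 came next at 26.1 and 24.5 CPM per kb and overlapped. Krt1 and Krt5 (16.8 and 13.96 CPM per kb) also overlapped. Krt6b, Krt17, Krt6a, Krt79, and Krt15, at 3.04 to 2.15 CPM per kb, could not be ordered beyond their spread. In the HFD + EC359 tumors, Krt8 and Krt18 still led (245 and 217 CPM per kb), followed by Krt14 (143 CPM per kb) and Krt16 (84.0 CPM per kb). Krt17, Krt6b, and Krt5 (75.2, 69.8, and 65.3 CPM per kb) overlapped in turn, and Krt15 and Krt79 (13.6 and 13.5 CPM per kb) overlapped.

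Across the 9 libraries, 9 of the 10 genes had a Pearson correlation of 0.90 to 0.99 with the mean of the members' standardized log2 levels, and Krt10 had -0.15. These are descriptions over 3 groups of 3 libraries, whose points share a diet and a treatment. Within the set, Krt6a and Krt6b were most alike (0.997), followed by Krt14 with Krt79 (0.994) and Krt17 with Krt6b (0.993). The lowest value among the 9 genes other than Krt10 was that of Krt15 with Krt1 (0.704). Outside the keratins, the genes most like the member mean among 13366 were Atp1b1 (r = 0.9957, a sodium pump subunit), Eps8l1 (0.9939), Casz1 (0.9918, a zinc finger transcription factor), Cdh1 (0.9916, E-cadherin), and Itgb4 (0.9914, the beta subunit of the hemidesmosome integrin). Their changes were smaller than those of the stress keratins, from -2.72 ± 0.224 for Eps8l1 to -0.67 ± 0.0376 for Itgb4 in HFD against LFD (log2 fold change). Itgb4 and Atp1b1 were not called in HFD + EC359 against HFD (0.53 ± 0.0367 and 0.91 ± 0.094), and Itgb4 was not called in HFD against LFD.

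**Figure D4:**
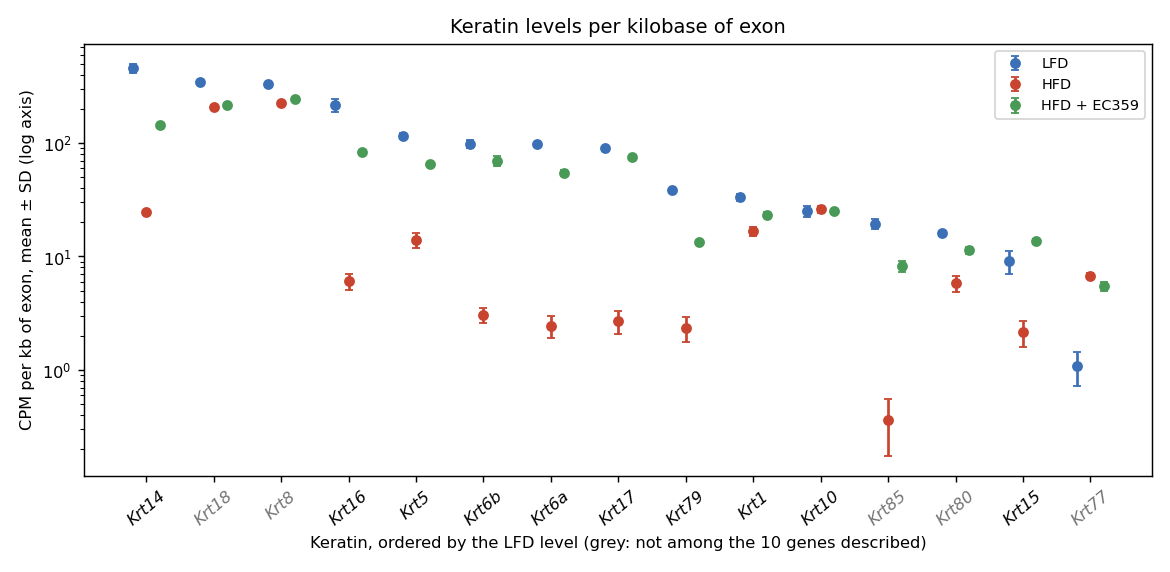
Levels of the 10 keratins and of Krt8, Krt18, Krt80, Krt77, and Krt85 (grey names) as CPM per kilobase of exon on a log axis, ordered by the LFD level. Points are group means and bars are SD over 3 libraries. Krt8 and Krt18 span 226 to 332 and 209 to 347, while Krt14 spans 24.5 to 459.

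Most of the other 41 keratins were hardly expressed. At most 3 counts in any library were found for 27 of them, including 15 without a single count, and 7 passed the filter on low counts. Krt8, the simple type II keratin, was at 599 ± 13.7, 408 ± 5.34, and 443 ± 7.64 CPM in LFD, HFD, and HFD + EC359. Krt18, its type I partner, was at 486 ± 11.4, 293 ± 7.41, and 304 ± 8.93 CPM. Neither gene was called in a comparison, although both were lower in HFD than in LFD (log2 fold changes of -0.55 ± 0.0343 and -0.73 ± 0.0375, adjusted p = 7e-15 and 5.87e-17 in edgeR's quasi-likelihood test). In HFD + EC359 against HFD, they differed by 0.12 ± 0.034 and 0.06 ± 0.0374 (adjusted p = 0.0102 and 0.304). Krt80, a type II keratin of many epithelia, was called lower in HFD against LFD (-1.45 ± 0.12) and was not called in HFD + EC359 against HFD (0.96 ± 0.119). Krt77, a type II keratin of suprabasal epidermis and sweat ducts, was called higher in HFD (2.66 ± 0.225) and changed by -0.31 ± 0.14 from HFD to HFD + EC359, which was not called. Its level was 1.86 ± 0.606 CPM in LFD, 11.7 ± 0.569 CPM in HFD, and 9.43 ± 0.841 CPM in HFD + EC359.

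Krt85, a hair keratin, had a log2 fold change of -5.69 ± 0.232 in HFD against LFD and 4.46 ± 0.267 in HFD + EC359 against HFD, and both were called. Its gene model in the table ended with a 32-base piece (chr15:101521909-101521940) of which 28 bases lay in an exon of Krt6a on the same strand. The Krt85 counts were 6.25% to 14% of the Krt6a counts in the 9 libraries. Reads of Krt6a and Krt85 cannot be told apart in that piece, so the Krt85 values are uncertain.

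The gene lists that follow were chosen with earlier results of these data known, so their counts are a description. The genes that stratified epithelia use to attach basal cells, among them the anchors of basal keratin filaments, were called lower in HFD against LFD for 4 of 9 (2.68% of all genes). Lamb3 and Lama3, which encode laminin chains of the epithelial basement membrane, and Col17a1, a hemidesmosome collagen, were among these 4, and each was called higher in HFD + EC359 against HFD. The log2 fold changes were -3.32 ± 0.243 and 3.26 ± 0.23 for Lamb3, and -2.50 ± 0.102 and 2.45 ± 0.0973 for Col17a1. In HFD + EC359 against LFD, 0 of the 9 were called (1.43% of all genes were called lower and 3.66% higher). The most abundant genes of the list, Plec (2398 to 3965 CPM in the group means), Dst (1471 to 1807 CPM), and Itgb4 (243 to 387 CPM), were not called. Their log2 fold changes in HFD against LFD and in HFD + EC359 against HFD were -0.59 and -0.13 for Plec and 0.13 and 0.16 for Dst. Those of Itgb4 were -0.67 and 0.53. The median log2 fold change of the 9 genes was -0.67 and 0.53 in the first and second comparison.

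Of 14 tested regulators of stratified epithelia, 9 were called lower in HFD against LFD (2.68% of all genes). In HFD + EC359 against HFD, 7 were called higher (2.06% of all genes). In the opposite direction, 0 were called in either comparison (3.03% and 1.38% of all genes). Ovol1 (-2.99 ± 0.326 and 2.07 ± 0.347), Grhl1 (-2.67 ± 0.28 and 2.12 ± 0.282), and Zfp750 (-2.62 ± 0.331 and 2.41 ± 0.317), transcription factors of epidermal differentiation, were called in both. Trp63, whose product p63 is the master regulator of basal cells, was named for that role after its values were seen. It was called lower and then higher (-1.96 ± 0.199 and 1.93 ± 0.185), and stood at 12.0 ± 0.785, 3.06 ± 0.724, and 11.8 ± 1.73 CPM. The most abundant regulators, Gata3, Sox9, and Klf4, were not called in either comparison, and Gata3 was higher in HFD by 0.45 ± 0.0412 (adjusted p = 9.47e-11, edgeR). The median log2 fold change of the 14 was -1.41 and 1.40. Only 1 of the 14 was called in HFD + EC359 against LFD (1.43% of all genes were called lower and 3.66% higher). This gene, Klf5, was lower (-1.34 ± 0.0869) and differed from HFD by -0.16 ± 0.0941, which was not called. Tfap2a and Tfap2c were not analysed here.

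Of 18 partners of keratins in desmosomes, envelopes, and stress responses, 10 were called lower in HFD against LFD (2.68% of all genes). In HFD + EC359 against HFD, 8 were called higher (2.06% of all genes). S100a14, a small calcium-binding protein of epithelia, fell by 3.44 on the log2 scale (SE 0.185) and Lgals7, galectin-7 of stratified epithelia, fell by 3.29 (SE 0.12). Sfn, a 14-3-3 protein that binds keratins, and Pkp1, a desmosome plaque protein, had log2 fold changes of -3.22 and -3.11. The same genes rose by 2.0, 2.49, 2.13, and 2.49 in HFD + EC359 against HFD. Dsp, desmoplakin, which ties keratin filaments to desmosomes, was at 232 ± 7.14, 33.1 ± 5.16, and 161 ± 6.32 CPM. Jup and Ppl, also abundant, were not called (-0.25 and 0.36 for Jup, -0.38 and 0.58 for Ppl). The median of the 18 was -1.21 and 0.64. Called lower in HFD + EC359 against LFD were 4 of the 18 (1.43% of all genes), S100a14, Sfn, Evpl, and Hbegf, at -1.44 to -1.0. Called higher was 1 (3.66% of all genes), S100a8, at 1.63 ± 0.141. Klf5, Evpl, Hbegf, and S100a8 were named after their values were seen. In these lists, each HFD against LFD and HFD + EC359 against HFD value also shares the HFD libraries.

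**Figure D5:**
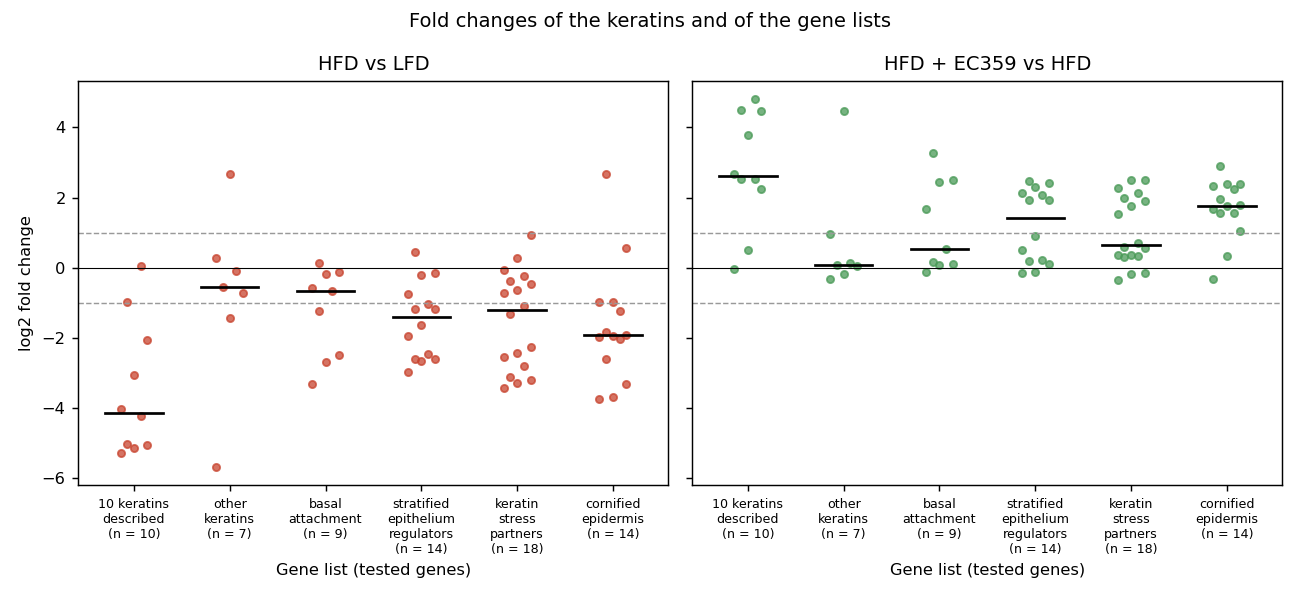
Log2 fold changes of single genes in HFD against LFD (left) and HFD + EC359 against HFD (right) for the 10 keratins, the 7 other keratins tested, and 4 gene lists. Points are genes, black lines are medians, and dashed lines mark a 2-fold change. The median of the 10 keratins is -4.13 and 2.61, and that of the cornified epidermis genes is -1.93 and 1.77.

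Markers of other cells moved in the same libraries. The 15 listed cornified epidermis genes (Lor, Flg2, Ivl, Krt2, Krt77, Krtdap, Sbsn, Dmkn, Casp14, Cdsn, Tgm3, Dsg1a, Dsc1, Lce1a1, and Calml3) summed to 187 to 192 CPM in LFD, 70.7 to 75.2 CPM in HFD, and 182 to 186 CPM in HFD + EC359. Of 14 tested, 10 were called lower (2.68% of all genes) and 1 (Krt77) higher (3.03%) in HFD against LFD. In HFD + EC359 against HFD, 12 were called higher (2.06%) and 0 lower (1.38%). Lor, a main protein of the cornified envelope, was at 11 ± 2.71, 3.01 ± 0.227, and 8.95 ± 0.908 CPM. Flg2 went the other way, at 7.89 ± 0.548, 11.7 ± 1.11, and 14.85 ± 0.583 CPM, and was not called. The epidermal keratin Krt2 had at most 9 counts in a library and was highest in HFD, with group means of 0.0523, 0.82, and 0.338 CPM. Of 18 hair shaft and root sheath genes, 14 had at most 3 counts in every library, and without Krt85 and Lef1 none was tested. Lef1 was highest in HFD, at 7.27 ± 0.494, 19.2 ± 1.72, and 12.2 ± 0.673 CPM in LFD, HFD, and HFD + EC359. It was called higher in HFD against LFD (log2 fold change 1.40 ± 0.141, 3.03% of all genes). In HFD + EC359 against HFD it was not called (-0.66 ± 0.114). Sebaceous gland genes were low apart from Plin2. Of 5 tested, 3 were called lower in HFD against LFD (2.68% of all genes), with Elovl3 at 5.71 ± 1.09, 0.261 ± 0.124, and 0.822 ± 0.209 CPM. In HFD + EC359 against HFD, 1 (Far2) was called higher (2.06% of all genes). Scd3 went the other way, at 6.17 ± 1.18, 7.90 ± 0.318, and 9.53 ± 1.26 CPM, and was not called. The group means of Awat2, too low to be tested, also rose (0.643, 0.739, and 1.08 CPM). The part of skin in the keratin results was not tested.

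Genes of the mammary myoepithelium, the basal cells of the gland, were in sum highest in HFD. The 6 genes (Acta2, Myh11, Oxtr, Cnn1, Mylk, and Tagln), which smooth muscle, pericytes, and fibroblasts also express, summed to 88.2 to 92.8 CPM in LFD, 129.8 to 141 CPM in HFD, and 71.2 to 78.1 CPM in HFD + EC359. Of the 4 tested, 0 were called in HFD against LFD, where 3.03% of all genes were called higher and 2.68% lower. Their log2 fold changes were 0.88 for Acta2, 0.71 for Tagln, 0.43 for Myh11, and 0.24 for Mylk. In HFD + EC359 against HFD, Acta2 (-1.18 ± 0.0819) and Tagln (-1.36 ± 0.116) were called lower (1.38% of all genes). Oxtr and Cnn1 were too low to be tested. Of the luminal and milk genes, Csn1s1, Csn2, Csn3, Wap, and Elf5 had at most 3 counts in every library. Summed adipocyte markers were 7.98 to 10.1, 20.8 to 24.8, and 21.7 to 25.6 CPM in LFD, HFD, and HFD + EC359, of which Fabp4, the only one called in HFD against LFD, made up 6.21, 19.98, and 19.4 CPM in the group means. In the same order, skeletal muscle markers were 88.4 to 95.2, 109.5 to 121, and 64.9 to 69.4 CPM, and neutrophil markers were 98.2 to 116, 122 to 134, and 153 to 160.1 CPM. Of the melanocyte genes, Tyr, Tyrp1, and Mlana had at most 3 counts in every library. Dct had 4 to 10 counts per library in LFD, 0 in HFD, and 2 to 6 in HFD + EC359. Mitf was at 10.4 ± 1.02, 15.7 ± 1.66, and 18.2 ± 2.49 CPM in the same order, and the groups overlapped for Pmel. The part of these cells in the keratin results was not tested.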

How the data were processed

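The data were 9 stranded RNA-seq libraries of tumor tissue, 3 per group as given by the labels. The deposited files hold expected counts, the read pairs that the authors assigned to each gene with featureCounts 1.5.0-p1 on mm9 per the file headers, reverse-stranded, with pairs that match several genes or positions split into fractions, and not normalized. The submitters' processing notes name HISAT2 2.1.0, whereas the paper's methods name TopHat2 and HTSeq. Values were rounded to whole numbers and fitted in edgeR 4.0.16 (R 4.3.3) as 1 quasi-likelihood model of 3 groups after filterByExpr and TMM scaling. Called genes changed more than 2-fold with an adjusted p under 0.01. DESeq2 1.42.0 and the other settings of the closing section were alternatives. Standard errors were derived from the F statistic. The steps were tested on simulated counts. CPM per kb used the table's exon lengths. Coding sequences and 150-base stretches (the read length) came from the protein-coding transcripts of GENCODE M1 (NCBIM37). Coding sequences were aligned with Biopython.

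The keratins and the gene lists were chosen with earlier results of these data known. Besides the 10, the text names other keratins that were called or were the 4 highest per kilobase, the 3 most abundant and up to 4 most changed called genes of the attachment, regulator, and partner lists, the 5 genes most like the keratins, overlapping genes, and the marker lists, of which single genes were named after their values were seen. Same-numbered libraries had deviations correlated at -0.02 to 0.03, so the numbers did not pair the samples. The limit of 3 counts covers counting error only. Values after ± are the SE, which includes the estimated spread between libraries, or the SD over 3 libraries. Rounded library totals were 5085357 to 9751201. Flg, Krt72, and Ly6g were not analysed here. Values of 2 other genes under this rule are left out. The GC and length correction was chosen after seeing the data.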

Additional observations from a re-analysis of the deposited data

How the results depend on the processing

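The 8 keratins called lower in HFD against LFD and the 8 called higher in HFD + EC359 against HFD numbered 8 or 9 under DESeq2, RLE factors, library totals, both filters, counts rounded down, the 6 libraries of a comparison, the GC and length correction, and each library left out (8 to 9 and 8). In HFD + EC359 against LFD, 3 were called, and 9 at an adjusted p under 0.05 with any fold change. With a replicate block, 8, 8, and 3 keratins and 759, 457, and 676 genes were called in the 3 comparisons, so the replicate block changed no call of a keratin. Calls over all genes, 763, 459, and 680, became 356, 211, and 418 with at least 10 counts in every library, 6925, 3549, and 7787 at an adjusted p under 0.05 with any fold change, and 404 in the last comparison with the GC and length trend removed. Called other keratins, 3, 1, and 2, became 5 and 2 in the first 2 comparisons with all genes of at least 1 count, 1, 0, and 0 with at least 10 counts in every library, and 5, 3, and 5 at an adjusted p under 0.05, and in the second comparison 1 to 2 with a library left out (2 without HFD replicate 1). The summed keratin level in HFD + EC359 was 1092.5 CPM with library totals against 1065.7. In HFD + EC359 against LFD, removing the GC and length trend turned Krt17 to 0.04, Itgb4 to 0.18, Lamb3 to 0.19, and Col17a1 to 0.19, and library totals turned Lamb3 to 0.02 and Col17a1 to 0.03. Lamb3 ranged from -0.18 to 0.02 with a library left out, at 0.02 without HFD + EC359 replicate 3. With a library left out, Krt10 ranged from -0.03 to 0.12 in HFD against LFD, from -0.10 to 0.01 in HFD + EC359 against HFD, and from -0.09 to 0.07 in HFD + EC359 against LFD, turning its sign without replicate 2 of LFD, HFD, or HFD + EC359. Where no construction of the setting shows the cause, the cause was not tested. Depth limits the HFD values of Krt15, Krt17, Krt6a, and Krt79, with 21 to 52 counts per library.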
